A study of Arabidopsis thaliana with 7 samples.

Results

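The genes described here are those of *Arabidopsis thaliana* that build or remodel the cell wall and that appeared in gene lists from FAIRE-seq, which recovers DNA left free of protein after formaldehyde crosslinking and so marks open chromatin. Members were chosen by words in the description that the lists give for each gene, such as xyloglucan, pectin, extensin, cellulose, arabinogalactan or glycosyl hydrolase, leaving out kinases and transcription factors. This gave 45 of the 2600 genes in at least 1 list. The libraries came from whole rosettes of Columbia-0 plants grown on MS medium at 24 °C with 12 h light and 12 h dark for 14 days, and crosslinked with formaldehyde. The groups were the *msh1* memory line (3 plants, replicates 1, 2 and 3) and wild type (2 plants, replicates 2 and 3). As background, a memory line is obtained by silencing *MSH1*, whose nuclear-encoded protein works in organelles, and then selecting progeny that have lost the silencing transgene. The labels give neither the generation of the line nor its source plant. Decrossed pools, of 3 plants for each genotype, were also made and are not analysed here. The authors deposited 6 lists, 1 for each memory plant against each wild type control, with the controls coded C2 and C3. Each list names the genes that the authors associated with peaks, using a window that reached 2 kb beyond both gene ends. A listing is therefore presence or absence in a contrast of 1 library with 1 library, without read counts, peak heights or a direction beyond the wild type library having been the control. The read depth was unknown, lists that share a library are not independent, and rosettes mix many cell types, so a listing cannot be given to one of them.

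The plant cell wall is a network of cellulose microfibrils, laid down by cellulose synthase complexes at the plasma membrane, that are held in a matrix of xyloglucan and other hemicelluloses and of pectin. Xyloglucan endotransglucosylases cut and rejoin xyloglucan chains, pectinesterases take methyl groups off pectin and so change how stiff it is, and expansins loosen the wall without cutting it. Arabinogalactan proteins and extensins are heavily glycosylated proteins of the wall and the cell surface, and laccases polymerize lignin in walls that have stopped growing. In a growing rosette these enzymes help set how fast leaf cells expand.

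Of the 45 wall genes, 6 were in all 6 lists, which is 13.3%, against 16.4% of all listed genes. Without memory plant 2 the order turned round, with 23.7% of wall genes and 22.0% of all listed genes in the 4 remaining lists. It stayed without plant 1 (19.4% against 24%) and without plant 3 (19.0% against 22.2%). The 6 wall genes in all 6 lists were *XTH27* (AT2G01850), *PME56* (AT1G11370), *AGP17* (AT2G23130), *AGP18* (AT4G37450), *GH9A4* (AT3G43860) and AT3G44070. They came from 5 of the polymer groups described below. The 250 bases before the annotated start of each of these genes are shown, because the upstream flank is part of the window used to associate peaks with genes. They were read 5′ to 3′ on the strand of the gene from RefSeq TAIR10.1, they lie upstream of the annotated transcripts and overlap 0 other annotated genes, and capitals mark the letters TATAAA on either strand.
PME56: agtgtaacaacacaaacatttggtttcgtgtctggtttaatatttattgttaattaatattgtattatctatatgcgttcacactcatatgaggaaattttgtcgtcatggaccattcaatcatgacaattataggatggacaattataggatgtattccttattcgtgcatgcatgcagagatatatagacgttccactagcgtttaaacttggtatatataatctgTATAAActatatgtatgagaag
XTH27: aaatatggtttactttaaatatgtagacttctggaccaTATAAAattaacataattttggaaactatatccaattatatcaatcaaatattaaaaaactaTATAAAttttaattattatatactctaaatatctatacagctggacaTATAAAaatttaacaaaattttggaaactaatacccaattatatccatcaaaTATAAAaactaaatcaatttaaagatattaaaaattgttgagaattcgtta
AGP17: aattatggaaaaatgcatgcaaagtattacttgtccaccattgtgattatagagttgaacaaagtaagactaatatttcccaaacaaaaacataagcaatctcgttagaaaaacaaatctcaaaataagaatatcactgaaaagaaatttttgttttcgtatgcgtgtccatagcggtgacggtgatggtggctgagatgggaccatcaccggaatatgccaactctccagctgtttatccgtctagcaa
GH9A4: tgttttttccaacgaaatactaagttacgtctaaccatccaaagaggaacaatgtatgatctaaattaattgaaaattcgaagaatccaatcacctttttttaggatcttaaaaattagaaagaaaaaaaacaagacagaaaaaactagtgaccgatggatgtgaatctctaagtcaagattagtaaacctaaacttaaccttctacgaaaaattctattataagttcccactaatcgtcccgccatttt
AT3G44070: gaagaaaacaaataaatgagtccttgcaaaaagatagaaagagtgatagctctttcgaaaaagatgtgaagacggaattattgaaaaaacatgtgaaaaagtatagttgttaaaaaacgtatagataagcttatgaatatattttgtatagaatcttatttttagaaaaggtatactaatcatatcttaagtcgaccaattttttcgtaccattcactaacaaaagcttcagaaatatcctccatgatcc
AGP18: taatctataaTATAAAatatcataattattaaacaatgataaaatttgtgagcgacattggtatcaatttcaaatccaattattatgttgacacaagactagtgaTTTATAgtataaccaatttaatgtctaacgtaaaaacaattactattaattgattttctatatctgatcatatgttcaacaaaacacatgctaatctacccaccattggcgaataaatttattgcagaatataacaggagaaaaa
In order, these are chr1:3831069-3831318 (minus strand), chr2:384921-385170 (plus), chr2:9843884-9844133 (plus), chr3:15706704-15706953 (plus), chr3:15829824-15830073 (minus) and chr4:17607051-17607300 (minus). The GC content of these sequences was 18.8% for *XTH27*, 24.8% for *AGP18*, 28.4% for AT3G44070, 30.8% for *GH9A4*, 31.2% for *PME56* and 36.8% for *AGP17*. Over all 45 wall genes the upstream median was 28.4%, against 31.6% for all listed genes and 31.2% over the 27443 nuclear protein-coding genes with a full window. *XTH27* held the letters TATAAA at 4 places, *AGP18* at 2 and *PME56* at 1. In *PME56* the 15 bases gacaattataggatg occurred back to back, at positions -126 and -111 from the start of the gene, and in *XTH27* the 14 bases aattttggaaacta occurred at positions -198 and -87. A repeated word of 12 or more bases was found upstream of 7 of the 45 wall genes (15.6%), against 12.2% of all listed genes and 11.5% of all genes.

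The first question was how far wall genes recurred between contrasts. Listed once were 18 of the 45 (40%), against 31.3% of all listed genes, 5 were in 2 lists, 8 in 3, 6 in 4, 2 in 5 and 6 in all 6. The median was 2 lists for wall genes and 2 lists over all listed genes. Counting a plant when it was listed against at least 1 control, 14 wall genes were found in all 3 memory plants (31.1%, against 37.2% of all listed genes), and 19 were listed for 1 memory plant only (42.2%, against 41.3%). Wall genes thus recurred about as often as listed genes in general, with the differences in these shares resting on few genes.

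**Figure D1:**
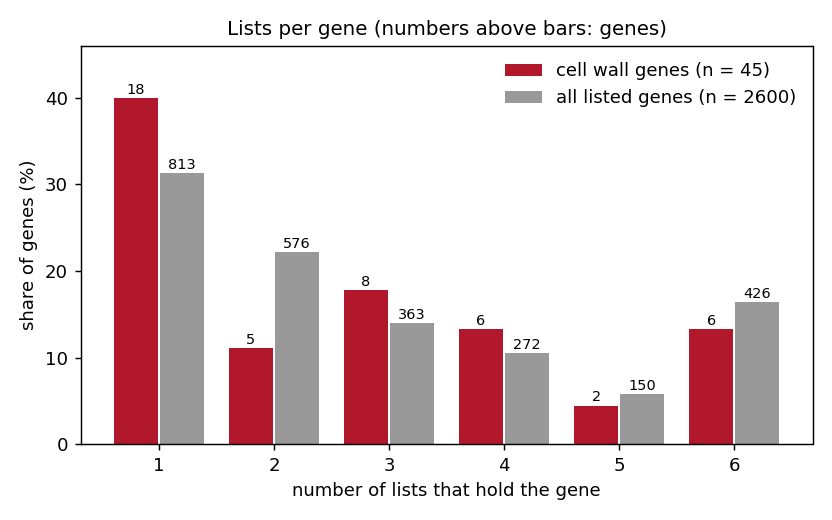
Share of genes (y axis, %) by the number of lists that hold the gene (x axis), for the 45 cell wall genes (red) and all 2600 listed genes (grey), with the number of genes above each bar. Both sets have their tallest bar at 1 list, with 18 wall genes and 813 listed genes.

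Contrasts with C2 held more wall genes than those with C3. Memory plant 1 had 28 wall genes against C2 (62.2% of the 45, beside 61.8% of all listed genes in that list) and 17 against C3 (37.8%, beside 50.2%). Memory plant 2 had 25 against C2 (55.6%, beside 49.8%) and 17 against C3 (37.8%, beside 40.5%). Memory plant 3 had 20 against C2 (44.4%, beside 46.7%) and 15 against C3 (33.3%, beside 37.4%). Wall genes made up 1.30% to 1.93% of a list, with the lowest share in plant 1 against C3 and the highest in plant 2 against C2. The lists against C2 are longer as a whole, with 1608, 1296 and 1213 genes for plants 1, 2 and 3, against 1305, 1053 and 973 for C3. Listed against C2 only were 18 wall genes (40%, against 31.2% of all listed genes), 8 were listed against C3 only (17.8%, against 19.1%), and 19 against both controls (42.2%, against 49.7%). These shares depend on the number of single listings, because a gene listed once can count under 1 control only.

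Within a memory plant the controls named partly the same wall genes. Plant 1 had 14 wall genes against both controls, 14 against C2 alone and 3 against C3 alone. In plant 2 these numbers were 12, 13 and 5, and in plant 3 they were 11, 9 and 4. The C2 list of the same plant held 82.4% of the wall genes in the C3 list of plant 1, 70.6% in plant 2 and 73.3% in plant 3, against 75.9%, 65.9% and 68.8% for all listed genes. The 6 pairs of lists without a common library shared 8 to 11 wall genes. As the mean of the shares of either list this was 42.7% to 59.9%, with an average of 51.7%, and for all listed genes the average was 53.6%.

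**Figure D2:**
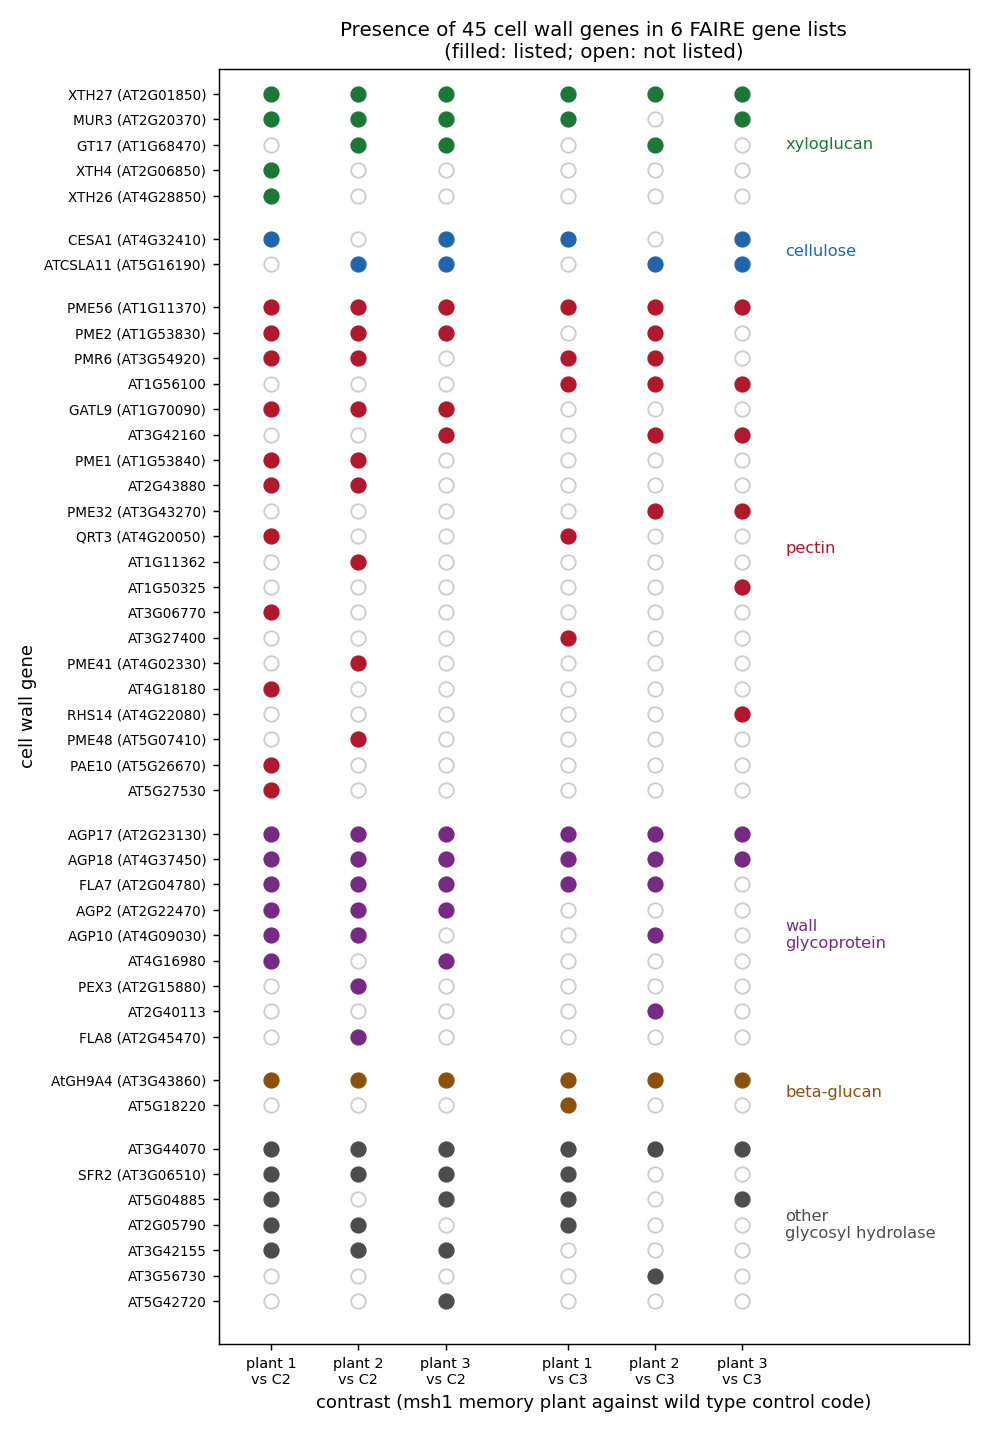
Presence (filled) or absence (open) of each of the 45 wall genes (rows, by polymer group) in the 6 contrasts of a memory plant with a wild type control (columns). Rows with 6 filled circles are the 6 genes in all lists, and the pectin group has 10 rows with a single filled circle.

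Xyloglucan genes numbered 5, with a median of 3 lists. *XTH27*, a probable xyloglucan endotransglucosylase/hydrolase with a role in vein development of rosette leaves (chromosome 2, 385171 to 387478, plus strand), was in all 6 lists. Its left neighbour AT2G01830 lies 15463 bp away and was in 4 lists, and its right neighbour AT2G01860 lies 576 bp away and was in 3. *MUR3* (AT2G20370, chromosome 2, 8791939 to 8794401, plus strand), which adds galactose to xyloglucan side chains, was in 5 lists, all but plant 2 against C3. The probable xyloglucan galactosyltransferase gene *GT17* (AT1G68470) was listed for plant 2 against both controls and for plant 3 against C2. *XTH4* (AT2G06850) and *XTH26* (AT4G28850), which encode enzymes of the same kind as *XTH27*, were listed once each, both for plant 1 against C2. By RefSeq product name 3 of 30 endotransglucosylase/hydrolase genes were listed (10%), against 9.47% of the 27444 nuclear protein-coding genes.

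The word cellulose caught 2 genes, both in 4 lists, of which *CESA1* alone encodes a cellulose synthase. *CESA1* (AT4G32410, chromosome 4, 15640490 to 15646844, minus strand), a catalytic subunit of the cellulose synthase of growing walls, was listed for plants 1 and 3 against both controls and for plant 2 against neither. *CSLA11* (AT5G16190, chromosome 5, 5283447 to 5286842, minus strand), of a family that makes mannans, was listed for plants 2 and 3 against both controls and for plant 1 against neither. Both controls therefore gave the same call for these genes in each memory plant, while the plants differed. The other subunit genes, *CESA2* to *CESA10*, were in none of the 6 lists.

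Pectin genes formed the largest group, with 20 members. A single listing was all that 10 of the 20 had, against 31.3% of all listed genes, 4 were in 2 lists, 3 in 3, 2 in 4 and 1 in 6, and the median was 1.5 lists, against 2 for all listed genes. Of the 20 genes, 10 were listed against C2 only, against 31.2% of all listed genes, and 5 against C3 only, against 19.1%. A gene with a single listing always counts under 1 control only, so these shares partly restate the single listings. Pectinesterase genes were 7 of the 20. *PME56* (chromosome 1, 3827851 to 3831068, minus strand) was in all 6 lists. *PME2* (AT1G53830) was listed for all 3 plants against C2 and for plant 2 against C3. *PME1* (AT1G53840) lies 320 bp from *PME2* and shared both of its listings with it, for plants 1 and 2 against C2. *PME32* (AT3G43270) was listed for plants 2 and 3 against C3, and the pectinesterase gene AT3G42160 for plant 3 against both controls and plant 2 against C3. *PME41* (AT4G02330) and *PME48* (AT5G07410) had 1 listing each, for plant 2 against C2. These 7 genes thus covered the range from 1 to 6 lists.

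The other pectin genes were lyase, polygalacturonase, galacturonosyltransferase-like, inhibitor family and acetylesterase genes. *PMR6* (AT3G54920, chromosome 3, 20344785 to 20348659, plus strand), a probable pectate lyase whose loss makes plants resistant to powdery mildew, was listed for plants 1 and 2 against both controls and for plant 3 against neither. The galacturonosyltransferase-like gene *GATL9* (AT1G70090) was listed for all 3 plants against C2 and for 0 against C3. The gene AT1G56100, of the invertase and pectin methylesterase inhibitor family, showed the opposite pattern, with all 3 plants listed against C3 and 0 against C2. *QRT3* (AT4G20050), a polygalacturonase that frees pollen grains from their tetrads, was listed for plant 1 against both controls and for no other plant. It was the single wall gene with that kind of pattern. AT2G43880, a putative polygalacturonase, was listed for plants 1 and 2 against C2. The remaining 8 had 1 listing each. They were the inhibitor family genes AT1G11362 and AT1G50325, the pectin lyase-like genes AT3G06770, AT3G27400, AT4G18180 and AT5G27530, *RHS14* (AT4G22080), a probable pectate lyase gene named for root hairs, and *PAE10* (AT5G26670), which encodes a pectin acetylesterase. Of these, AT3G06770, AT4G18180, AT5G27530 and *PAE10* were listed for plant 1 against C2, AT1G11362 for plant 2 against C2, AT3G27400 for plant 1 against C3, and AT1G50325 and *RHS14* for plant 3 against C3.

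Wall glycoprotein genes numbered 9, with a median of 3 lists. *AGP17* (chromosome 2, 9844134 to 9845385, plus strand) and *AGP18* (chromosome 4, 17605538 to 17607050, minus strand) encode lysine-rich arabinogalactan proteins of the same subclass, and both were in all 6 lists. *AGP2* (AT2G22470) was listed for all 3 plants against C2 and for 0 against C3. *AGP10* (AT4G09030) was listed for plant 2 against both controls and for plant 1 against C2, and AT4G16980 for plants 1 and 3 against C2. These 5 genes were thus in 2 to 6 lists, too few to set against the 31.3% of all listed genes that had a single listing. Of the fasciclin-like arabinogalactan proteins, which carry an adhesion domain, *FLA7* (AT2G04780, chromosome 2, 1676717 to 1678455, plus strand) was in 5 lists, all but plant 3 against C3, and *FLA8* (AT2G45470) was in 1, plant 2 against C2. Genes with extensin in their description were listed once each, the pollen gene *PEX3* (AT2G15880) for plant 2 against C2 and AT2G40113, of a pollen allergen and extensin family, for plant 2 against C3.

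Glucan and other hydrolase genes made up the rest. *GH9A4* (chromosome 3, 15706954 to 15709989, plus strand), an endoglucanase, was in all 6 lists, and the glucanase-like gene AT5G18220 in 1, plant 1 against C3. AT3G44070 (chromosome 3, 15828153 to 15829823, minus strand), of glycosyl hydrolase family 35, the family of the beta-galactosidases, was also in all 6. AT5G04885 was listed for plants 1 and 3 against both controls, the pattern of *CESA1*. The family 9 gene AT3G42155 was listed for all 3 plants against C2 only. The family 17 gene AT2G05790 was listed for plant 1 against both controls and plant 2 against C2, and AT5G42720 of the same family for plant 3 against C2. The words also caught 2 genes that are not known to act on the wall. *SFR2* (AT3G06510), an enzyme of plastid membrane lipids that protects against freezing, was listed for all 3 plants against C2 and for plant 1 against C3, and AT3G56730, a putative endonuclease, for plant 2 against C3.

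The lists name only genes that were found, so the annotation was used for the number that could have been. With the same words applied to RefSeq product names, 690 nuclear genes matched. Of these, 55 were in at least 1 list (7.97%), against 9.47% of all nuclear protein-coding genes. A match does not place a gene in the wall. *ENGase85A* (AT5G05460), in 1 list, matched by the words glycosyl hydrolase but is described as cytosolic. In all 6 lists were 7 of the 690 (1.01%), against 1.55%. The listed share was 7.5% for pectin (21 of 280), 8.18% for wall glycoproteins (9 of 110) and 8.57% for xyloglucan (3 of 35). It was 10% for the cellulose word group (4 of 40) and 10.2% for other glycosyl hydrolases (17 of 166). The word glucanase gave 12.5% (1 of 8), but its 1 listed gene was the expansin gene *EXP3*, whose product name reads Barwin-like endoglucanases. *GH9A4* was not counted under that word here. There were 0 of 34 for the word expansin and 0 of 17 for lignin. Among families, 6 of 31 genes of glycosyl hydrolase family 17 (19.4%) and 5 of 30 arabinogalactan protein genes (16.7%) were listed, against 0 of 17 laccase genes and 1 of 35 expansin genes when *EXP3*, whose RefSeq product name lacks the word, is counted. These shares were not tested, and a family with 0 listings can still have peaks under the threshold of the authors.

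**Figure D3:**
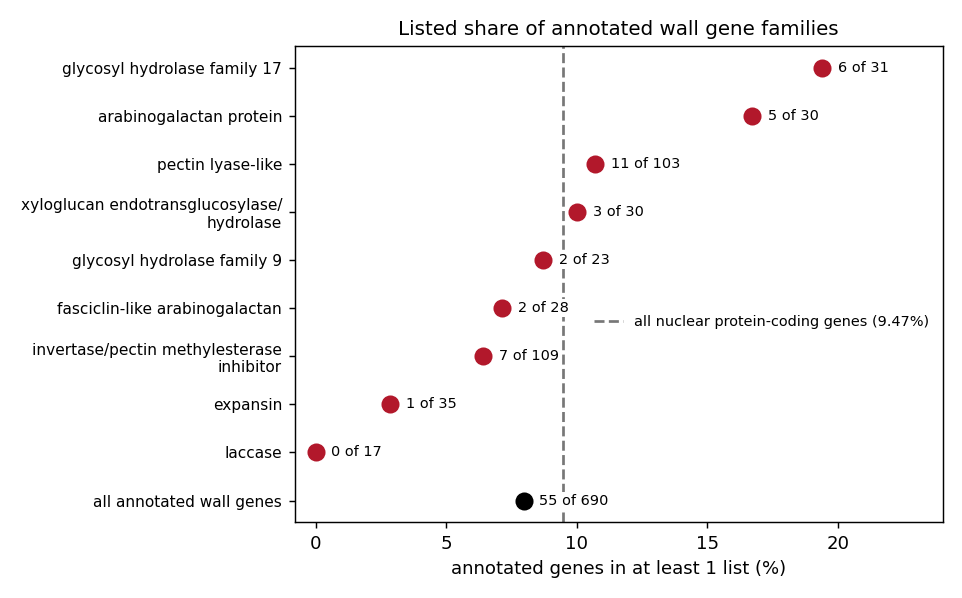
Share of annotated genes in at least 1 list (x axis, %) for wall gene families, with counts beside each point. The black point, labelled all annotated wall genes, stands for the 690 genes whose product names matched the words. The share over all nuclear protein-coding genes is a dashed line (9.47%). Glycosyl hydrolase family 17 (19.4%) and arabinogalactan proteins (16.7%) lie right of the line, and expansins and laccases left of it.

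Both sources of names found 39 listed genes, with 16 found through RefSeq alone and 6 through the list descriptions alone. The 16 had uninformative or differently worded descriptions in the lists. *EXT13* (AT5G35190, chromosome 5, 13434151 to 13435424, plus strand), of a proline-rich extensin-like family, was in all 6 lists. AT2G27500, described as a glucan endo-1,3-beta-glucosidase, was in 5 lists, all but plant 3 against C3. *AGP9* (AT2G14890), another arabinogalactan protein, was listed for all 3 plants against C3 and for plant 1 against C2. *EXP3* (AT2G37640), an expansin gene, was listed for plants 1 and 2 against C3. *CSLD3* (AT3G03050), a cellulose synthase-like protein needed for root hair growth, was listed for plants 1 and 3 against C2. The other 11 were in 1 to 4 lists.

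Genes of the wider wall pathway were taken from a list by role, which overlaps the word search in part, for example in the cellulose synthases. Of 106 such genes with a single match, 12 were in at least 1 list (11.3%, against 9.47% of all nuclear protein-coding genes) and 0 were in all 6 (against 1.55%). Without *CESA1* and *MUR3*, which are among the 45 wall genes, this was 10 of 104. The share is near that of all genes, and the counts by role are small. Cellulose synthesis had 2 of 18, hemicellulose synthesis 1 of 19, nucleotide sugars 2 of 17, lignin synthesis 2 of 15, secondary wall control 3 of 19 and wall sensing 2 of 18. *COB*, which anchors to the membrane and orients microfibrils, was listed for all 3 plants against C2 only, and so was *PAL3*, a phenylalanine ammonia-lyase gene. *PAL2*, of the same first step towards lignin, was in 4 lists, all 3 against C3 and plant 2 against C2. *VND5*, a NAC factor gene of vessel formation, was in 4, all 3 against C3 and plant 1 against C2. *NST1*, a NAC factor gene of fibre walls, was listed for plant 3 against both controls, and *RHM3* of rhamnose synthesis and the wall-associated kinase-like gene *WAKL4* for plant 1 against both controls. *UGD2* of UDP-glucuronic acid synthesis, *MYB103* of secondary walls and the wall sensor gene *THE1* had 1 listing each.

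The surroundings of the wall genes, which the rule did not use, were set beside those of all listed genes. The median space to both neighbouring protein-coding genes was 3036 bp for wall genes, against 2683 bp for all listed genes and 1791 bp for unlisted genes. For the 6 wall genes in all lists it was 5841 bp, ranging from 1523 bp for *AGP17* to 20748 bp for *GH9A4*. It was 1964 bp for the 8 genes in 4 or 5 lists, 3252 bp for the 13 in 2 or 3, and 3343.5 bp for the 18 in 1 list, with no steady order by number of lists. The median gene length was 2295 bp, against 2252.5 bp for all listed genes, and the median GC content of the gene with 2 kb on both sides was 35.4%, against 36.3%. Sequence repeated elsewhere in the genome made up a median of 1.02% of these windows, against 1.27% for all listed genes and 0.375% for unlisted genes. It was 12.7% for *GH9A4*, 11.8% for *PME56* and 6.84% for AT3G44070, but 0.0796% for *XTH27*, 0.0191% for *AGP17* and 0 for *AGP18*. Whether repeated sequence had a part in the listings was not tested.

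**Figure D4:**
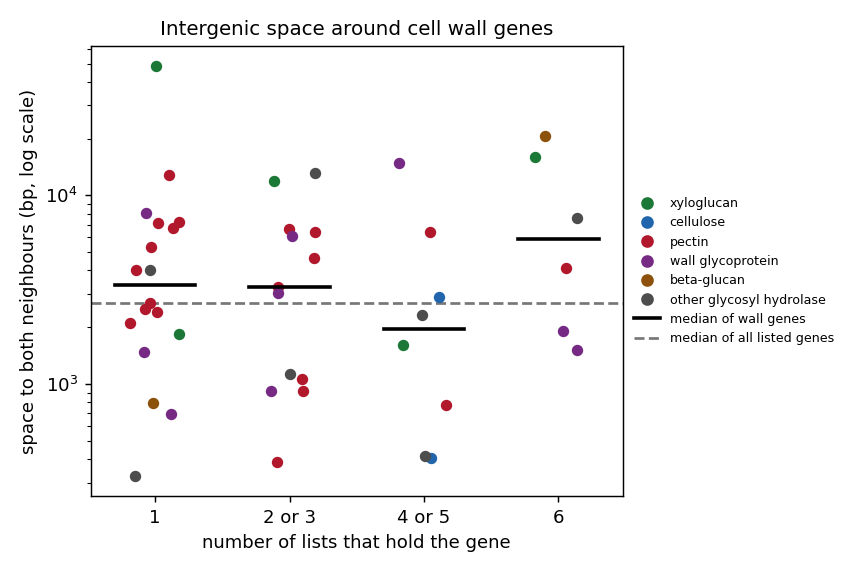
Space to both neighbouring protein-coding genes (y axis, bp, log scale) for the 45 wall genes by the number of lists that hold them (x axis), coloured by polymer group, with medians as black bars and the median of all listed genes (2683 bp) as a dashed line. The medians are 3343.5, 3252, 1964 and 5841 bp from left to right, and the points of all 4 classes overlap.

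Neighbours were often listed too. An adjacent protein-coding gene was listed for 18 of the 45 wall genes (40%), against 33.8% of all listed genes. Next to each other lay 3 pairs of wall genes. *PME2* and *PME1* shared 2 lists, AT3G42155 and AT3G42160 lay 1084 bp apart with 3 lists each and shared 1, and AT1G11362 and *PME56* lay 2619 bp apart and shared 1. Windows of 2 kb around such neighbours overlap, and a single peak could list both. On chromosome 3, AT3G42155, AT3G42160, *PME32*, *GH9A4* and AT3G44070 lay between 14312295 and 15829823, a stretch singled out after the positions were seen. In it, 30 of 116 protein-coding genes were listed (25.9%), against 8.97% on chromosome 3 as a whole. The 30 include these 5 wall genes, which are listed by the rule, and AT3G42155 and AT3G44070 set the ends of the stretch. Its share is therefore raised by the way it was chosen.

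A listing did not always extend to the neighbours. Windows were drawn here from RefSeq TAIR10.1 gene ends. In each list 24.3% to 29.7% of the genes had a window wholly covered by windows of genes not in that list. If the authors used the same gene ends and window, the lists cannot hold every gene within 2 kb of a peak. For wall genes the window was so covered in 27 of 122 listings, in 12 genes. Among them were *AGP18* in 6 of its 6 lists, *PMR6* in 4 of 4 and *AGP17* in 4 of 6. Absence from a list was therefore not read as evidence that a peak was more than 2 kb away.

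Short sequence words upstream of the wall genes were compared with those of all genes in the same 250 bases, on both strands. The letters TATAAA, the core of the TATA box, were found for 18 of 45 wall genes (40%), against 46.5% of all listed genes and 47.3% of all genes. The G-box core CACGTG was found for 5 (11.1%, against 8.35% and 6.49%) and the W-box TTGACC for 5 (11.1%, against 12.4% and 12.2%). The element ACCAAAC, which MYB factors of secondary walls bind, was found for 4 (8.89%, against 8.27% and 8.29%), and the auxin response element TGTCTC for 4 (8.89%, against 9.92% and 10.9%). TGGGCC, the site II element, was found for 2 (4.44%, against 16.5% and 13.7%), the telo-box AAACCCTA for 1 (2.22%, against 4.23% and 4.49%), and GAGAGAGA for 0, against 5.23% and 4.91%. Upstream of the 6 genes in all lists TATAAA was found for 3 and none of the other 7 words for any. A match is a run of letters and not a bound site.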

How the data were processed

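FAIRE-seq libraries were made from 3 *msh1* memory plants and 2 wild type plants. The submitters' processing notes name Trim Galore 0.4.1, cutadapt 1.9.1, Bowtie2 and the build TAIR10. Peak caller, threshold and depth are not given in the sources used here, and no interval could be given for a listing. The deposited files list genes associated with peaks within 2 kb, for each memory plant against each control, without pooling. The labels name the memory plant of each list but not which wild type replicate C2 or C3 is.

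Descriptions were searched for 12 words before the first semicolon, leaving out 2 words, and genes were put in 8 polymer groups by those words. All 45 members matched RefSeq TAIR10.1, the source of coordinates, neighbours and sequences. Upstream windows of 250 bases were cut from that genome in place of a planned promoter table. Repeated sequence was measured by the 31-mers of a window that occur again elsewhere in the nuclear chromosomes. No test was run, since each contrast has 1 library a side. Shares are set beside those of all listed genes. Words, members and lists were chosen with earlier results of these data known. Genes named in full were, by rule, those in 5 or 6 lists, with 1 control in all plants, with 1 plant against both controls, or pathway genes in 3 or more lists. Other genes named were chosen after their values were seen. Counting was tested on simulated lists. Analyses used Python 3.11.15, pandas 2.3.3 and NumPy 2.4.6.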

Additional observations from a re-analysis of the deposited data

How the results depend on the processing

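Of 45 alternative values, 42 stayed within a factor of 1.5 (counts and shares of a list) or within the 95% binomial interval of the main value (other shares) and 3 moved. The interval served only as a yardstick, since it treats genes as independent. Most alternatives reuse the same lists and genes, so values that stayed are no independent support. Keeping kinases and transcription factors, for example, again gave 45 wall genes with 6 in all lists. With C2 alone, 13 wall genes were in all lists, or 35.1% (37.9% of all listed genes), and with C3 alone 27 wall genes were in at least 1 list. With fewer lists, the number in all lists cannot fall and the number in at least 1 cannot rise. The size of the change differed between the controls, which have equal numbers of lists. C2 alone gave 37 wall genes in at least 1 list. C3 alone gave 7 in all lists, or 25.9% (32.3% of all listed genes). Leaving out 1 memory plant at a time, 36 to 42 wall genes were in at least 1 list, 7 to 9 were in all, and the share in all was 19.0% to 23.7%. Without plant 2 the 23.7% lay above the 22.0% of all listed genes. This reverses the order of 13.3% and 16.4% found with all lists. Without plant 1 the share was 19.4%, against 24% of all listed genes, and without plant 3 it was 19.0%, against 22.2%. Those values keep the order. RefSeq product names gave 55 listed genes that matched the words and 7 in all lists (12.7%, against 16.4% of all listed genes). Without the term glycosyl hydrolase there were 38 and 5 (13.2%, against 16.4%). Wall family symbols gave a listed share of 8.91%, against 9.47% of all nuclear protein-coding genes. The next alternatives were chosen after the data were seen. Leaving out *SFR2* and AT3G56730 gave 43 genes, 6 in all lists (14%, against 16.4%). Leaving out the stretch of chromosome 3 gave 40 genes, 4 in all lists (10%, against 16.4%). No paired analysis was possible because the codes C2 and C3 do not give the replicate numbers of the wild type plants, and a listing belongs to a contrast rather than a sample. Since depth was unknown, a gene missing from a list may have a peak too weak to be called.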
